A study of Mus musculus with 25 samples.

Results

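The intron deletion of Il2ra was set directly against the upstream deletion of Il2ra in mouse CD8+ T cells. The comparison used 4 H3K27ac HiChIP libraries of the 25 samples in the series: an IL-2 library and a control library of the intron deletion, and an IL-2 library and a control library of the upstream deletion. They were chosen by their labels and not by any measured value. All 4 came from spleens of strain C57BL/6J and shared the same handling: the cells were pre-activated for 2 days, rested for 4 h, and then received IL-2 or were left untreated. Both genotypes are CRISPR deletions at the Il2ra super-enhancer, so neither is an unedited reference. Not given in the sources used here are the deleted coordinates, the founder lines, how many mice were used, and how much IL-2 these libraries received or for how long. No wild-type library was used here, so a difference cannot be assigned to a change in either genotype: lower in the intron deletion and higher in the upstream deletion are the same value.

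Il2ra encodes CD25, the alpha chain that gives the IL-2 receptor its high affinity. IL-2 signals through Jak kinases to Stat5, and Stat5 in turn acts on Il2ra, on feedback genes such as Cish and on survival genes such as Pim1. A super-enhancer is a dense group of enhancers marked by H3K27 acetylation that lie in and around a gene and can fold onto its promoter. In HiChIP, neighbouring DNA ends in the nucleus are ligated, ligated fragments that carry the mark are pulled down with an antibody, and read pairs between places in the genome are counted. The places here were bins of 1 kb. A bin pair is 2 bins joined by read pairs, its contact count is the number of those read pairs, and the coverage of a bin is the number of reads counted on that bin.

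The promoters of Il2ra and of the gene ends with the lowest and the highest difference below are shown because their bins carry the values described. Each runs from 250 bases before to 50 bases after the RefSeq start of transcription in GRCm38.p6. Capitals mark matches, on either strand, to a STAT motif (TTCNNNGAA), an AP-1 motif (TGANTCA) or an E-box (CACGTG); no match overlapped another.
Il2ra, chr2:11642542-11642841, plus strand: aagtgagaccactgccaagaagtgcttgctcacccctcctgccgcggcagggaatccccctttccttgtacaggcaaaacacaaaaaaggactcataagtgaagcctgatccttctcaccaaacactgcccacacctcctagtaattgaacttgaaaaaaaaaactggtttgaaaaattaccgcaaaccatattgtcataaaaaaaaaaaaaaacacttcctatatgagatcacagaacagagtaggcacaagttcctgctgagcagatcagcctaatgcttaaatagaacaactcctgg
Apobec3, chr15:79892158-79892457, plus strand: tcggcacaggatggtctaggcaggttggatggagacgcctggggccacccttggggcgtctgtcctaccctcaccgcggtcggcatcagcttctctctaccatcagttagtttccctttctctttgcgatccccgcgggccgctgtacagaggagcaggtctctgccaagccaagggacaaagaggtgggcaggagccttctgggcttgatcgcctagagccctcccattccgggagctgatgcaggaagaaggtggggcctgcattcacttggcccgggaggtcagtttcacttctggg
Fam240a, chr9:110916849-110917148, minus strand: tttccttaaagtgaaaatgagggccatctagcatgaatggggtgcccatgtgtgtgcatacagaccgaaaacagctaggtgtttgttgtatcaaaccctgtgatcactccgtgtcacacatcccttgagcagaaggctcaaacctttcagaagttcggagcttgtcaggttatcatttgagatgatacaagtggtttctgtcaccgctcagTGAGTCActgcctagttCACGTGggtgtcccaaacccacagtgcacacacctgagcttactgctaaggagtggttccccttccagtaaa
The Fam240a window held 1 AP-1 match and 1 E-box, and the Il2ra and Apobec3 windows held no match to the 3 motifs. Among 32851 RefSeq promoter windows of the same length, 8.30% held the STAT motif, 7.81% the AP-1 motif and 7.15% the E-box. These matches describe letters and not binding.

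The intron deletion tables listed 72743 pairs with 2709959 contacts in the IL-2 library and 38879 pairs with 1314137 contacts in the control library. The upstream deletion tables listed 61168 pairs with 2203507 contacts in the IL-2 library and 56113 pairs with 1965388 contacts in the control library. No listed pair had under 20 contacts, so a pair that is not listed was treated as below the listing limit and not as 0. The features tested were the 28973 pairs listed in all 4 libraries, of 93730 listed in any, the 18854 anchor bins listed in all 4, of 38442, and 2518 gene ends. A gene end is the sum of contacts of the shared pairs that touch a bin holding an annotated end of a gene; 2850 of 21627 protein-coding genes had such pairs, and genes with the same bins share a value. After scaling, the relative sizes of the pair counts were 1.17 and 0.829 for the IL-2 and control libraries of the intron deletion, and 1.02 and 0.980 for those of the upstream deletion. Raw counts below therefore read slightly high for the intron deletion IL-2 library and low for its control library. Of 10 CD8 T cell markers, 9 had listed bins in each library, Trac being the exception. Their 94 shared bins summed to a coverage of 207510 and 141223 in the intron deletion (IL-2, control) and 151092 and 160499 in the upstream deletion. Among 9 B cell markers, 2 and 1 had listed bins in the intron deletion (IL-2, control), against 3 and 4 in the upstream deletion. Of these, Cd79a was measured at a gene end, at a log2 difference of 0.40 ± 0.12 (SE, adjusted p = 0.0845). The part of B cells in the results was not tested. No erythroid marker had a shared bin, and Klf1 was listed in the upstream deletion IL-2 library. The median difference of bins on chromosome X was -0.02.

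Differences are log2 of the intron deletion over the upstream deletion with the treatment as a term, with standard errors (SE), and adjusted p is from edgeR's quasi-likelihood test with Benjamini-Hochberg adjustment over all features of a kind, at a threshold of 0.05. With 1 library per genotype and treatment, the spread in these tests comes from how far the genotype gap differs between IL-2 and control. For pairs it was shared over all pairs, so the p-value and SE of a pair do not measure its own difference between treatments. For bins and gene ends it was drawn towards the value shared over all features. The p-values measure no spread between like libraries. Leaving out either intron deletion library leaves the IL-2 difference of the upstream deletion as the spread, and the counts then drop to between 0 and 16 features for each kind.

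The question at Il2ra itself was which contacts of the promoter each deletion leaves. H3K27ac coverage was lower in the intron deletion at the Il2ra start and the first bins after it, and the gene body beyond was listed almost entirely in the upstream deletion. The bin that holds the start had a coverage of 2177 with IL-2 and 1360 in control in the intron deletion, against 3619 and 2833 in the upstream deletion. Its difference was -0.84 ± 0.11 (adjusted p = 0.000504). The bin 2 kb further into the gene had 2368 and 1469 reads in the intron deletion, against 4967 and 3829 in the upstream deletion, a difference of -1.17 ± 0.10. These were the highest coverages at the locus in the upstream deletion libraries, and the intron deletion was lower under both treatments, at -1.28 with IL-2 and -1.06 in control on the log2 scale. Without 1 of the intron deletion libraries the start bin (highest adjusted p = 0.204) and the bin 2 kb on (0.127) did not pass. The bins 49 kb after the start, in the 3′ part of the gene, and 5 kb before the start also differed, by -0.85 ± 0.11 and -0.57 ± 0.12. At the Il15ra end 63 kb away, coverage was 2423 and 1760 in the intron deletion, against 3031 and 3202 in the upstream deletion (-0.54 ± 0.10, adjusted p = 0.00364). Il15ra encodes the alpha chain of the IL-15 receptor. The Rbm17 bin 40 kb before the start did not pass the test (-0.27 ± 0.10, adjusted p = 0.0771).

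Listing followed the labelled deletions in a mirrored way. In the stretch of 22 bins from 3 to 24 kb after the start, chr2:11645001-11667000, the intron deletion had 1 listed bin with IL-2 and 1 in control, and the upstream deletion had 18 and 16. In the stretch of 23 bins from 33 to 11 kb before the start, chr2:11609001-11632000, the intron deletion had 13 and 4 listed bins, and the upstream deletion had 2 and 1. These stretches were drawn after the listed bins were seen and are not deletion coordinates. Between 45 kb before and 70 kb after the start, the intron deletion listed 54 pairs with IL-2 and 16 in control, against 117 and 72 in the upstream deletion. Pairs with an anchor in the gene body stretch numbered 1 and 1 in the intron deletion, against 70 and 43 in the upstream deletion. Pairs with an anchor in the upstream stretch numbered 35 and 8 in the intron deletion, against 7 and 1 in the upstream deletion. Pairs that touch neither stretch were also fewer in the intron deletion, 18 and 7, against 40 and 28 in the upstream deletion.

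**Figure D1:**
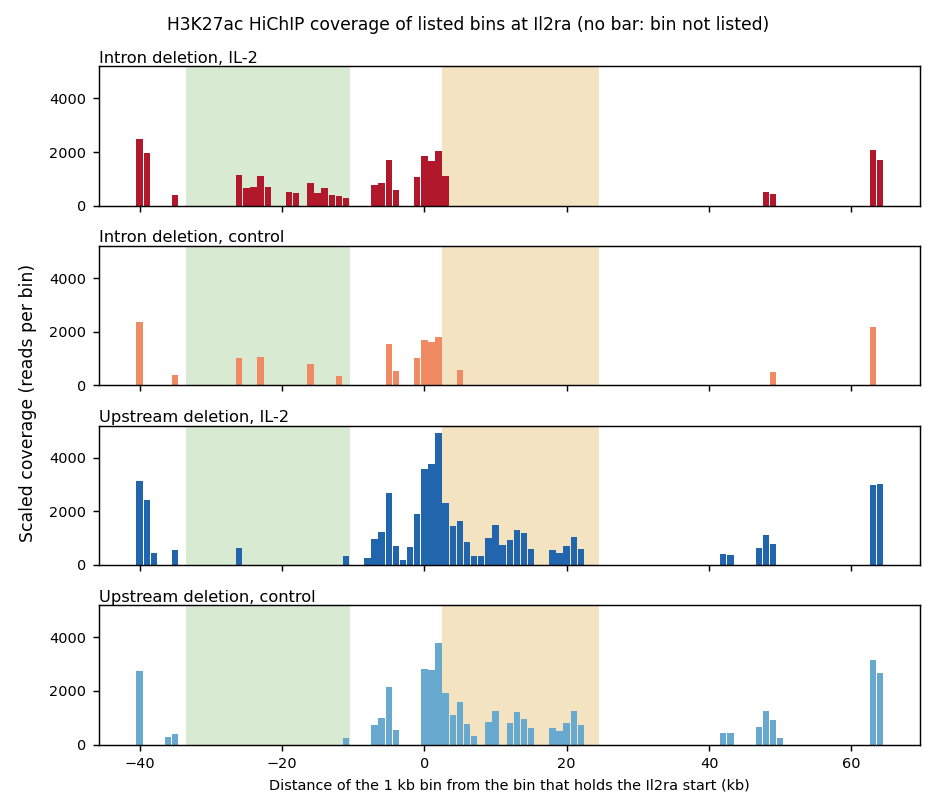
Coverage of each listed 1 kb bin (reads, divided by the library's relative size) against its distance in kb from the bin of the Il2ra start, in the 4 libraries from top to bottom; a missing bar is a bin that is not listed. The green band is the upstream stretch and the tan band the gene body stretch: bars in the green band are almost all in the intron deletion panels and bars in the tan band almost all in the upstream deletion panels, and the bars at the start are taller in the upstream deletion.

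The Il2ra promoter bin had 9 listed partner bins with IL-2 and 4 in control in the intron deletion, against 18 and 15 in the upstream deletion. Over these partners the contacts came to 296 and 105 in the intron deletion, against 614 and 495 in the upstream deletion. These sums mix the number of contacts with the listing limit, so they give no fold. Over the 4 pairs listed in both IL-2 libraries, the intron deletion had 0.862 of the contacts of the upstream deletion after scaling to library size (exact 95% binomial interval 0.694 to 1.07), and over the 3 pairs listed in both control libraries 0.581 (0.439 to 0.762). Intervals cover counting error only. The promoter's listed contacts with the gene body stretch were 0 and 21 in the intron deletion, against 336 and 295 in the upstream deletion. Listed contacts with the upstream stretch were 133 and 24 in the intron deletion, against 49 and 20 in the upstream deletion. These sums also mix contacts with the listing limit. The 1 pair of this stretch listed in both IL-2 libraries had 30 contacts in the intron deletion, against 26 in the upstream deletion. With unlisted pairs set to 19 contacts, the scaled ratio over this stretch was 1.06 with IL-2 (0.831 to 1.35) and 1.30 in control (0.826 to 2.07). Outside both stretches, over pairs listed in both libraries of a treatment, the ratio was 0.836 with IL-2 (0.659 to 1.06) and 0.612 in control (0.440 to 0.843). The promoter pair listed in all 4 libraries joins the start to the bin 5 kb before it, with 61 and 40 contacts in the intron deletion, against 75 and 78 in the upstream deletion. As the Il2ra gene end, its difference of -0.61 ± 0.20 did not pass the test (adjusted p = 0.103).

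Further along chromosome 2, Prkcq, which encodes the protein kinase C theta of T cell receptor signalling, was higher in the intron deletion: 2541 and 1445 gene-end contacts, against 1619 and 1088 in the upstream deletion (0.54 ± 0.09, adjusted p = 0.00209). Of its 45 tested bins, 41 had higher coverage and 0 lower, with a median of 0.43, where 28.7% of all tested bins passed the threshold in either direction and 15.1% were higher. At Pfkfb3, which makes the regulator of glycolysis fructose-2,6-bisphosphate, 5 of 6 bins were higher (median 0.32). Their adjusted p lay between 0.0160 and 0.0494, close to the threshold at the upper end, and 0 of 5 tested Pfkfb3 pairs passed. The bins between 100 kb and 1 Mb from the Il2ra start, 53 of 58 higher, largely recount this locus: all 53 lie in the 2 windows of 100 kb that hold Prkcq. From 1 to 10 Mb, 3 of 88 bins were higher and 22 lower, and the rest of chromosome 2 had 233 higher and 137 lower of 1209. The bin counts near Il2ra share neighbouring reads and are not independent of one another.

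Across the genome, differences were found in both directions; the scaling centres them near 0, so the balance of higher and lower calls is not a result. Of the tested pairs, 605 were higher (2.09%) and 565 lower (1.95%) in the intron deletion, 4.04% in either direction. Of the tested bins, 2838 were higher and 2569 lower. Of the gene ends, 41 were higher and 39 lower, 3.18% in all, 1.63% higher and 1.55% lower. The same sign in the IL-2 pair of libraries and in the control pair, which share no library, was seen for 59.8% of pairs, 75.4% of bins and 59.3% of gene ends. Among the features that passed, it was seen for 1163 of 1170 pairs, 5407 of 5407 bins and 80 of 80 gene ends; the fit favours such features by construction. Across features the IL-2 gap and the control gap had a Pearson correlation of 0.365 for pairs, 0.786 for bins and 0.336 for gene ends, which describes these 4 libraries. The difference was over 1 in size on the log2 scale for 349 pairs, 396 bins and 10 gene ends. With DESeq2 the counts fell to 10 higher and 7 lower pairs and to 2 higher and 3 lower gene ends, and of the gene ends named here Fam240a, Il6st, Apobec3 and Ly6e passed with it; most gene-end calls therefore depend on the tool, those with a low adjusted p included.

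**Figure D2:**
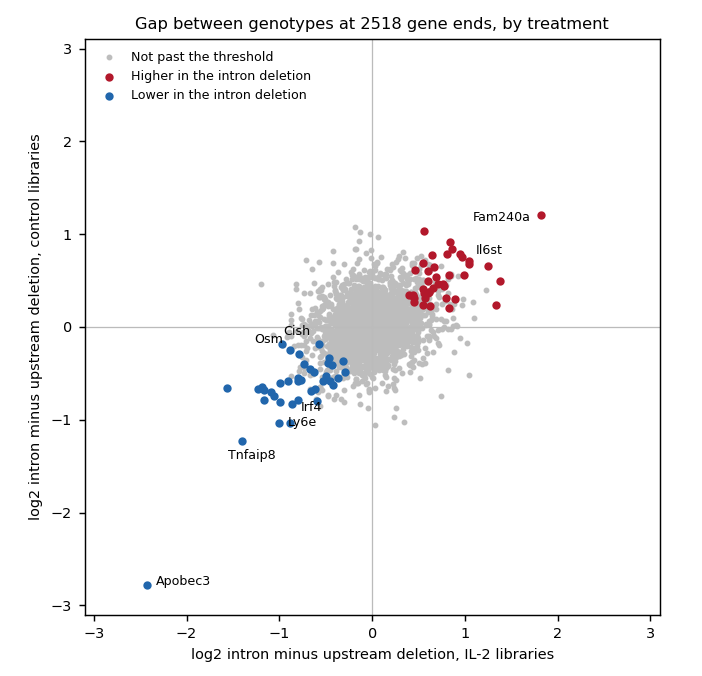
Each of 2518 gene ends by its log2 difference, intron minus upstream deletion, in the IL-2 libraries (x axis) and in the control libraries (y axis); red and blue points passed the threshold over the 4 libraries as higher (41) or lower (39) in the intron deletion. Grey points form a round cloud around 0, Apobec3 stands apart at the lower left and Fam240a at the upper right.

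Apobec3 had the largest difference of the gene ends. It encodes a cytidine deaminase that restricts retroviruses. Its pair, chr15:79892001-79893000 with chr15:79900001-79901000, had 34 contacts with IL-2 and 23 in control in the intron deletion, against 169 and 194 in the upstream deletion. The values did not overlap between the genotypes, and the gene-end difference was -2.66 ± 0.19 (adjusted p = 4.7e-08); this call was kept in 15 of 15 alternatives, where the other 19 of the 20 gene ends named for size kept theirs in between 6 of 15 (2610044O15Rik8 with Gm32856) and 14 of 15 (Fam240a), Bbof1 in 5 of 12. One anchor lies in the printed promoter's bin. The other anchor bin had a coverage of 283 and 200 in the intron deletion, against 3223 and 4145 in the upstream deletion, the lowest bin difference of all at -3.88 ± 0.14. Over the 50 kb around the gene, the intron deletion listed 4 and 2 pairs and the upstream deletion 62 and 69. When contacts were set against the coverage of their own anchors, the difference of the pair was 0.16 (adjusted p = 0.964).

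The Ly6 cluster on the same chromosome held differences in both directions. Ly6e, a membrane-anchored protein of the Ly6 family, had 812 and 645 gene-end contacts in the intron deletion, against 1434 and 1524 in the upstream deletion, over 20 shared pairs (-1.02 ± 0.09, adjusted p = 8.1e-07). Of 36 tested bins over the Ly6 cluster, 30 were lower and 2 higher. The bin chr15:74933001-74934000, 21 kb from Ly6e, had 1015 and 684 reads in the intron deletion, against 4100 and 4658 in the upstream deletion (-2.33 ± 0.11). A 19 kb pair from chr15:74935001-74936000 to the bin beside Ly6e had 41 and 20 contacts in the intron deletion, against 131 and 123 in the upstream deletion (-2.07 ± 0.22). With coverage offsets this Ly6e pair did not pass. The highest bin difference of the genome, 2.59 ± 0.12, was at chr15:75442001-75443000, 6.5 kb from Ly6l, with 1497 and 912 reads in the intron deletion, against 215 and 190 in the upstream deletion. That bin also anchored the pair with the highest difference, to a bin 326 kb away near Ly6c2: 155 and 108 contacts in the intron deletion, against 29 and 27 in the upstream deletion (2.23 ± 0.23). Ly6 genes are similar in sequence, so how reads were assigned between copies could bear on these values and was not tested.

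Fam240a was the highest gene end, with 438 and 289 contacts in the intron deletion, against 107 and 144 in the upstream deletion over 3 shared pairs (1.52 ± 0.14, adjusted p = 1.7e-06). The nearby pair named for its difference spans 9 kb from chr9:110908001-110909000 to the bin beside the gene's start, with 190 and 124 contacts in the intron deletion, against 32 and 45 in the upstream deletion. Both of its anchors lie outside genes, so it is not among those 3 shared pairs. Of 17 tested bins in the 50 kb around Fam240a, 14 were higher and 0 lower, and 20 of 22 pairs were higher. The intron deletion listed 122 and 77 pairs there, and the upstream deletion 26 and 45.

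Il6st, which encodes gp130, the signalling chain shared by the receptors of the IL-6 family, was higher in the intron deletion. It had 589 and 438 contacts there and 250 and 308 in the upstream deletion over 9 pairs (0.88 ± 0.11, adjusted p = 0.000137). All 5 of its tested bins were higher. A pair outside genes, 35 kb from Ankrd55 and 39 kb from Il6st, was also higher. It had 123 and 90 contacts in the intron deletion, against 24 and 39 in the upstream deletion. This pair passed in 11 of 14 alternatives and not with coverage offsets. The other gene ends among the 10 highest were Bbof1, Kif11, which encodes a mitotic kinesin, 2610044O15Rik8 with Gm32856, Tent5c, a poly(A) polymerase, Nup214 of the nuclear pore, Ccdc69, Slfn1 of the Schlafen family and Zmat2, a splicing factor. Their differences lay between 0.81 and 1.02, and 5 of the 10 rested on 1 shared pair. Slfn1 had 153 and 105 contacts in the intron deletion, against 73 and 67 in the upstream deletion (0.87 ± 0.16).

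Tnfaip8, a TNF-induced protein of the TIPE family, was second among the lower gene ends, with 30 and 26 contacts in the intron deletion, against 73 and 73 in the upstream deletion (-1.38 ± 0.22, adjusted p = 0.00209). Prrg4, a membrane protein with a Gla domain, had 20 and 23 contacts in the intron deletion, against 56 and 43 in the upstream deletion (-1.20 ± 0.26). Then came Fosl1, Pskh1, Rftn1, which encodes the lipid raft protein raftlin, Ajuba with Haus4, Il12rb2 and Scand1, between -1.05 and -0.95. Of the 10 lowest, 8 rested on 1 shared pair. All 20 had the same sign under both treatments, as the rule for naming them required.

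**Figure D3:**
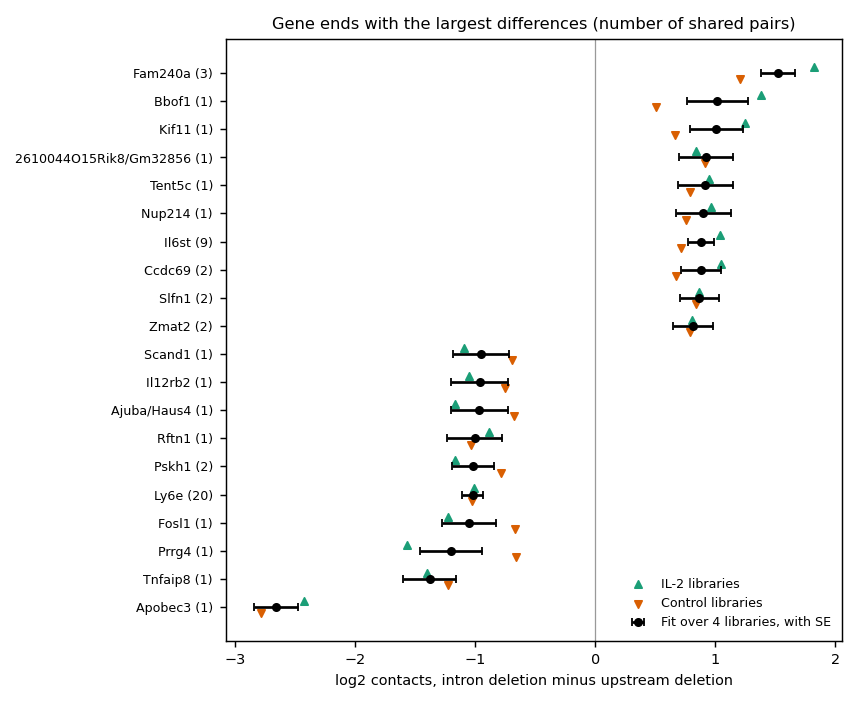
The 10 highest and 10 lowest gene ends past the threshold: log2 contacts, intron minus upstream deletion, with the SE of the fit (black), and the difference within the IL-2 libraries (green) and within the control libraries (orange); the number of shared pairs is in parentheses. Each gene's 3 points lie on the same side of 0, and the green point is farther from 0 for most genes.

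The gene lists were described by counts, since their members were chosen with earlier results of these data known. Over 12 lists, 131 gene ends were measured, of which 3 were higher (2.29%) and 13 lower (9.92%), against 1.63% and 1.55% of all gene ends. List members named below that did not pass the test were chosen after their values were seen. The median over the members was -0.07, against 0.01 over all gene ends. Without the intron deletion IL-2 library 0 of these 16 passed, and likewise without its control library; without the upstream deletion IL-2 library 10 passed, and without its control library 16.

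Of 28 IL-2 and Stat5 target genes, 22 were measured, 4 were lower in the intron deletion and 0 higher. Their median was -0.26, and 17 of 22 had a negative difference, against 1237 of 2518 over all gene ends and 6 of 7 housekeeping gene ends. Irf4, a transcription factor of activated T cells, had 71 and 47 contacts in the intron deletion, against 115 and 98 in the upstream deletion (-0.87 ± 0.17, adjusted p = 0.00799). Osm, which encodes the cytokine oncostatin M, had 395 and 290 contacts in the intron deletion, against 640 and 398 in the upstream deletion (-0.59 ± 0.13, adjusted p = 0.0121). Osm passed in 7 of 14 alternatives, where its difference ranged from -0.86 to -0.29. Pim1, a survival kinase, had 1093 and 723 in the intron deletion, against 1298 and 1110 in the upstream deletion (-0.42 ± 0.09). Cish, the Stat5-induced inhibitor of cytokine signalling, had 4602 and 2739 in the intron deletion, against 5993 and 3599 in the upstream deletion over 50 pairs (-0.38 ± 0.09, adjusted p = 0.0217); it passed in 6 of 15 alternatives and was at -0.06 without the upstream deletion IL-2 library. Il2rb, a signalling subunit that IL-2 and IL-15 receptors share, stood just outside the threshold (-0.31 ± 0.09, adjusted p = 0.0504), and Cdk6, a G1 cell cycle kinase, was at -0.60 ± 0.19 (adjusted p = 0.103). Socs1 (-0.01 ± 0.09) and Myc (-0.02 ± 0.11) were near 0, while Mcl1 (0.30 ± 0.12) and Pim2 (0.25 ± 0.10) had positive differences that did not pass. With IL-2 the gaps were -0.88 for Osm, -0.57 for Cish, -0.86 for Irf4 and -0.44 for Pim1, and in control -0.25 for Osm, -0.19 for Cish, -0.83 for Irf4 and -0.41 for Pim1; the interaction leaves no residual degree of freedom and was not tested.

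AP-1, NF-kB and feedback genes were the list with the most lower members: 5 lower and 0 higher of 18 measured, with a median of -0.20. They were Fosl1 (-1.05 ± 0.23) and Fosl2 (-0.57 ± 0.13), which encode AP-1 subunits, Dusp4 (-0.71 ± 0.17) and Dusp2 (-0.51 ± 0.09), which encode MAP kinase phosphatases, and Nfkb1 (-0.43 ± 0.10), the p105 and p50 subunit of NF-kB. Fosl1 passed in 7 of 14 alternatives and was at -0.07 in coverage, and Dusp4 passed in 5 of 14 and was at -0.31 within 1 bin of a gene end. Fosl2 passed in 7 of 15, where its difference ranged from -0.81 to -0.28. Dusp2 had 1231 and 885 contacts in the intron deletion, against 1522 and 1477 in the upstream deletion over 23 pairs. Jun, another AP-1 subunit, was at 0.68 ± 0.23 and did not pass (adjusted p = 0.13), and Junb (-0.13 ± 0.08) and Tnfaip3 (0.10 ± 0.11) had small differences. Among effector molecules and factors, Irf4 was 1 lower member of 10 measured, 8 of which had negative differences; Tbx21, which encodes T-bet, was at -0.65 ± 0.19 (adjusted p = 0.0738), and Nkg7 at -0.40 ± 0.11 (adjusted p = 0.0532).

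Among cytokine receptors, Jaks and Stats, Il6st was higher and Il12rb2, a chain of the IL-12 receptor, lower, of 17 measured. Of 18 measured T cell identity genes, Lat, the adaptor of T cell receptor signalling, was higher (0.36 ± 0.09, adjusted p = 0.0363; past the threshold in 6 of 15 alternatives and not with limma-voom), and the CD3 genes Cd3d, Cd3e and Cd3g lay between 0.01 and 0.11. Satb1, a chromatin organiser of T cells, was the lower member of 8 measured naive and memory genes, with 76 and 56 contacts in the intron deletion, against 135 and 115 in the upstream deletion (-0.93 ± 0.16, adjusted p = 0.00335). This Satb1 value rested on 2 shared pairs. It passed in 10 of 15 alternatives, not within 1 bin of a gene end, and ranged from -1.06 to -0.27 over them. Cd83 was the lower member of 10 activation and checkpoint genes (-0.68 ± 0.11). Ddit4, a stress-induced inhibitor of mTORC1, was the lower member of 14 quiescence and stress genes, with 1361 and 1074 contacts in the intron deletion, against 1605 and 1918 in the upstream deletion (-0.53 ± 0.09). By edgeR, 0 of 9 growth and nutrient transport, 0 of 14 interferon response and 0 of 7 housekeeping gene ends passed. Their medians were -0.02, -0.01 and -0.02, and 5, 9 and 6 of them had negative differences. In the Il2ra neighbourhood list, 3 of 8 genes were measured: Prkcq was higher, and Il2ra and Il15ra (-0.32 ± 0.25) did not pass.

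**Figure D4:**
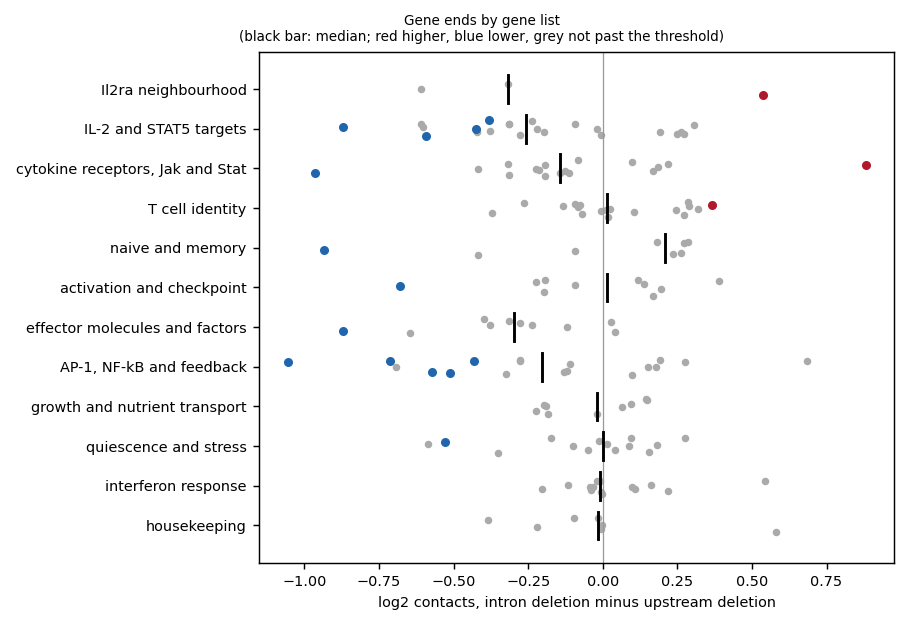
Each point is a measured gene end of a list, placed by its log2 contact difference, intron minus upstream deletion; red points passed the threshold as higher, blue as lower, grey did not pass, and the black bar is the list's median. Blue points gather in the IL-2 and STAT5 target list (4) and the AP-1, NF-kB and feedback list (5), and the growth, interferon and housekeeping lists hold grey points alone.

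Bins that passed lay in runs as well as singly. Of 1221 windows of 100 kb with at least 5 tested bins, 14 had every bin higher in the intron deletion and 18 had every bin lower; 189 held bins of both directions and 242 held none that passed. The windows were chosen after the data were seen. The longest lower runs were on chromosome 5 upstream of and in Rbpj, the DNA-binding factor of Notch signalling: 8 of 8, 27 of 27 and 38 of 38 bins were lower between chr5:53300001 and chr5:53600000, at medians of -1.34, -1.11 and -0.94. With IL-2 these medians were -1.52, -1.31 and -1.21, and in control -1.09, -0.87 and -0.65. The intron deletion listed 353 and 177 pairs over these windows, and the upstream deletion 1181 and 628. Pairs listed in all 4 libraries there numbered 168, of which 75 were lower and 0 higher. The tested bins of the first window lay outside genes, and the gene nearest to its middle bin was Smim20, at 116 kb.

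Other windows with every bin lower held Bhlhe40, a transcription factor of activated T cells (11 bins, median -1.15), Irs2, an insulin receptor substrate (6 bins, -0.98), Sik1, a salt-inducible kinase (17 bins, -0.87), Dusp2 with Astl (27 bins, -0.73) and Irf4 with Exoc2 (15 bins, -0.72). Egr3 with Pebp4 (13 bins, -0.58) and Batf (5 bins, -0.54) also had every bin lower, though their gene ends, at -0.22 ± 0.22 and -0.28 ± 0.23, did not pass the test. Windows with every bin higher held Fam240a, Arl4c (13 bins, 0.99), Il6st (19 bins, 0.87), the histone acetyltransferase gene Kat2b (17 bins, 0.83), the Src family kinase gene Fyn (5 bins, 0.78), Jak1 (9 bins, 0.76), Limk2 with Pik3ip1 (11 bins, 0.66) and Tent5c (7 bins, 0.53). In the Cd8a and Cd8b1 window, which holds the coreceptor that defines these cells, 51 of 62 bins were higher and 0 lower (median 0.62). The gene ends of Jak1 (0.18 ± 0.11, adjusted p = 0.478) and Arl4c (0.11 ± 0.20, adjusted p = 0.867) did not pass. The Cd8b1 gene end was at 0.29 ± 0.09 and did not pass (adjusted p = 0.0755).

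**Figure D5:**
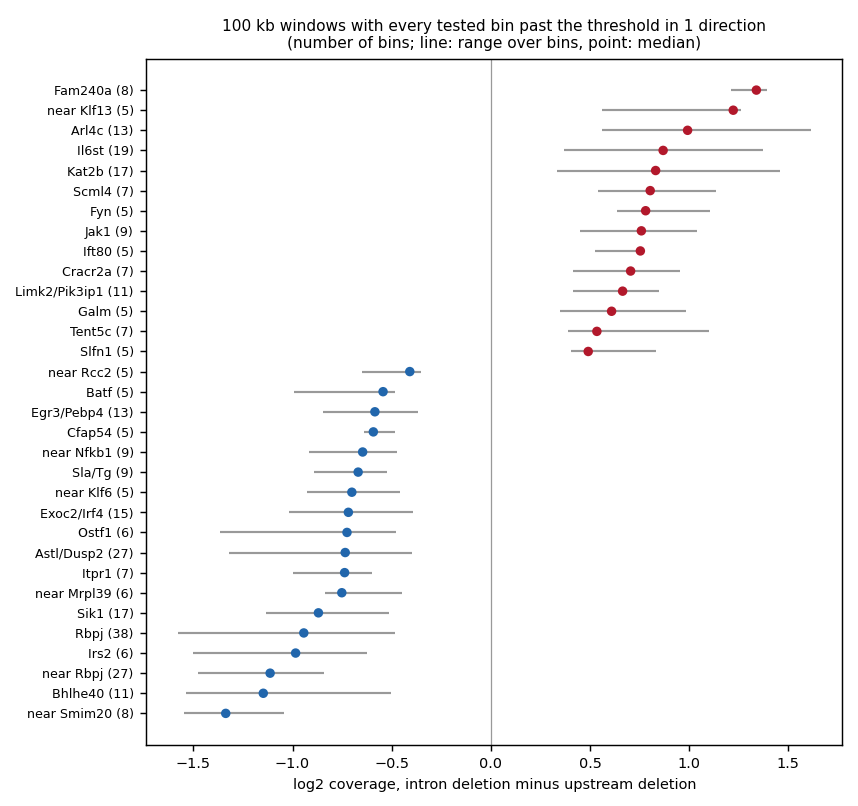
The 32 windows of 100 kb in which every tested bin passed the threshold in the same direction, named by genes that hold a tested bin or by the nearest gene: point, median log2 coverage difference, intron minus upstream deletion; line, range over bins; number of bins in parentheses. The 14 red windows are higher and the 18 blue windows lower in the intron deletion. Medians run from 1.34 at Fam240a to -1.34 in the window labelled near Smim20, which is the first of the windows upstream of and in Rbpj.

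The place of a bin and the span of a pair went with how often they passed. Of bins that hold a gene end, 14.6% passed in either direction, against 28.9% of other bins inside genes and 35.2% outside genes. Pairs between 2 gene ends passed in 0.954% of cases, 7 higher and 5 lower of 1258, and pairs with both anchors outside genes in 7.70%, 172 higher and 183 lower of 4608. By span, 5.24% of pairs of 5 to 9 kb passed, 1.68% of pairs of 50 to 99 kb and 5.05% of pairs of 100 kb or more. Counts per feature differ between these classes, and their part in the shares was not tested.

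Contacts and coverage moved together. Across the tested pairs, the contact difference and the mean coverage difference of the anchors had a Pearson correlation of 0.757, as a description, since both count reads of the same libraries. Of 1170 pairs that passed, 823 had both anchor bins past the threshold in the same direction, 295 had 1 and 52 had 0. With contacts set against the coverage of their anchors, 7 pairs passed as higher and 1 as lower, and 7 of these were among the 1170. Named after their values were seen, 2 of these joined the Tnfaip3 gene, which encodes the NF-kB inhibitor A20, to bins 171 and 173 kb away. The first had 130 and 112 contacts in the intron deletion, against 63 and 80 in the upstream deletion, a difference of 0.76 beyond coverage (adjusted p = 0.011), and the second had 134 and 105 against 40 and 79 (0.74, adjusted p = 0.038). Another joined 2 bins within Prkcq, 28 kb apart, with 81 and 63 contacts in the intron deletion, against 31 and 25 in the upstream deletion. Its difference beyond coverage was 0.96, just inside the threshold (adjusted p = 0.0496). The largest beyond coverage was a 39 kb pair near Klrb1c on chromosome 6, an NK receptor gene in a cluster of similar genes, with 271 and 176 contacts in the intron deletion, against 59 and 39 in the upstream deletion (2.10 beyond coverage, 2.18 ± 0.19 in contacts). The Ly6l to Ly6c2 pair also passed, at 1.07 beyond coverage.

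The remaining pairs with the largest differences were each 7 to 15 kb in span. At Cdkn1a, which encodes the cell cycle inhibitor p21, a 15 kb pair had 29 and 28 contacts in the intron deletion, against 101 and 124 in the upstream deletion (-1.95 ± 0.23). Inside Satb1, a 7 kb pair had 28 and 20 contacts in the intron deletion, against 78 and 75 in the upstream deletion (-1.67 ± 0.26). About 135 kb from Rbpj, a 7 kb pair had 29 and 21 in the intron deletion, against 99 and 85 in the upstream deletion (-1.88 ± 0.24). Near Slc6a19, an amino acid transporter gene, a 7 kb pair had 110 and 70 in the intron deletion, against 20 and 24 in the upstream deletion (2.02 ± 0.25). In coverage, Pxmp4 (1.97 ± 0.12) and Mettl9 (1.73 ± 0.12) held bins among the highest, and Cdk17 (-1.96 ± 0.11), Smg1 (-1.95 ± 0.11) and Ccdc184 (-1.86 ± 0.13) bins among the lowest.

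Pairs listed in both libraries of a genotype and in neither of the other give what the shared pairs leave out. Of 93730 pairs listed in any library, 2951 were such pairs in the intron deletion, against 4211 in the upstream deletion. Most were near the listing limit, with a median lower count of 22 in each. The intron deletion control library listed 38879 pairs in all, against 56113 in the upstream deletion control library. The part of this difference in listing in these counts was not tested. At 40 or more contacts in both libraries there were 41 in the intron deletion, against 78 in the upstream deletion. Of the 78, the 100 kb window around the Ly6e start held 22 and the Apobec3 window 17. Inside Il2ra, the pair from 2 to 10 kb after the start had 57 and 70 contacts in the upstream deletion and was listed in neither intron deletion library. In Camk2b, a calmodulin-dependent kinase gene, a 6 kb pair had 92 and 112 contacts in the upstream deletion. On the intron deletion side, the strongest was a 25 kb pair at Art2b with 155 and 115 contacts. Next were Mfap1b to Mfap1a with 116 and 62 and Srp54a to Srp54b with 98 and 60, each between similar gene copies, whose reads the counting could split or merge. A 5 kb pair in Eps15l1 had 77 and 57 contacts in the intron deletion. These pairs were chosen for being listed in 1 genotype, so no test is given.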

How the data were processed

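H3K27ac HiChIP libraries of CD8+ T cells were compared; the 19 ChIP-seq and 2 wild-type HiChIP samples were not analysed here. The submitters' processing notes name CASAVA, Bowtie2 2.2.6 and HiC-Pro, and the build mm10 (GRCm38). The deposited tables, in the layout of FitHiChIP per their names and columns, hold contact counts per pair of 1 kb bins and coverage counts per bin; the authors' counts are raw. The deposited p-value columns were empty and bias columns were not used.

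Counts were tested in edgeR 4.0.16 (R 4.3.3; glmQLFit, TMM scaling) on genotype and treatment, leaving 1 residual degree of freedom; prior degrees of freedom were infinite for pairs, 9.25 for bins and 17.5 for gene ends. The SE is the log2 difference over the square root of F. Differences within a treatment used a prior count of 2. The fits were also run on simulated counts drawn with no treatment effect and the same dispersion for every feature, and no result here rests on that run. Genes came from RefSeq (GRCm38.p6).

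The members and lists were chosen with earlier results of these data known. Gene ends were named by rule: the 10 highest and 10 lowest past the threshold with the same sign under both treatments, list members past it, and the Il2ra neighbourhood; pairs and bins likewise, 5 each way, 1 per 100 kb. Neighbourhood list genes that lie off chromosome 2 were dropped. Alternatives used DESeq2 1.42.0, limma 3.58.1, other scalings, filters and left-out libraries.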

Additional observations from a re-analysis of the deposited data

Results flagged for a closer look

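At 4 list members the gap between genotypes had opposite signs under the 2 treatments by over 0.3 on the log2 scale, and the difference between treatments was not tested. Dusp1, a MAP kinase phosphatase gene, was at 0.57 in the IL-2 libraries and -0.39 in the control libraries, with 69 and 32 contacts in the intron deletion, against 40 and 49 in the upstream deletion. Egr2, a transcription factor gene induced by T cell receptor signals, was at 0.45 in the IL-2 libraries and -0.35 in the control libraries. Dusp6, another MAP kinase phosphatase gene, was at -0.55 in the IL-2 libraries and 0.44 in the control libraries. Slc7a5, which encodes an amino acid transporter, was at -0.58 in the IL-2 libraries and 0.32 in the control libraries. Each rests on 1 or 2 pairs. Over all gene ends, 62 of 2518 (2.46%) had such opposite gaps.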

How the results depend on the processing

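No paired analysis was possible because each genotype and treatment has 1 library here, and the labels give no replicate numbers. The reported fit already compares the genotypes within treatment, and the fit without the treatment term is its unpaired alternative. The counts of pairs past the threshold were 605 higher and 565 lower as reported, and moved to 10 and 7 with DESeq2, 254 and 221 without the treatment term, and 7 and 1 with coverage offsets. The bin counts, 2838 and 2569, moved to 1400 and 1456 with DESeq2 and 1532 and 1297 without the treatment term. The gene-end counts, 41 and 39, moved to 66 and 68 with median-of-ratios size factors, 23 and 24 with total counts, 2 and 3 with DESeq2, 1 and 3 at a mean count of at least 40, 9 and 19 without the treatment term, 24 and 25 without chromosome 2, 82 and 135 with coverage in place of contacts, 113 and 110 within 1 bin of a gene end, and 60 and 65 with start bins alone, a setting chosen after seeing the data. The cause of these moves was not tested. Leaving out 1 library at a time, without the treatment term, gave 7 to 759 higher and 3 to 1048 lower pairs, 0 to 5186 higher and 0 to 5139 lower bins, and 0 to 126 higher and 1 to 120 lower gene ends. The lowest came without an intron deletion library: edgeR then passed 0 bins without the IL-2 library and 0 without the control library, with 2754 and 2860 at an unadjusted p under 0.05. Without the intron deletion IL-2 library edgeR passed 0 higher gene ends, with 124 gene ends at an unadjusted p under 0.05 in either direction. The Apobec3 pair turned to 0.16 with coverage offsets. The Il2ra promoter ratio over all partners was 0.420 with IL-2 and 0.251 in control as a ratio of sums over separately listed pairs, which counts unlisted pairs as 0 and is no fold; it moved to 0.862 and 0.581 over pairs listed in both libraries and to 0.691 and 0.766 with unlisted pairs set to 19 contacts. The Il2ra gene end (-0.61) passed with coverage (-0.85), within 1 bin of the ends (-0.64) and without the upstream deletion IL-2 library (-0.70). The listing limit of 20 contacts bounds how low a shared pair can be, so differences at weak pairs are compressed in both directions and neither higher nor lower calls can be counted in full.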
